A study of Mus musculus with 36 samples.

Results

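The complement components and receptors described here, 9 of the 55487 genes in the count matrix, were chosen by gene symbol and followed through 36 bulk RNA-seq libraries of mouse optic nerve and retina: C1qa, C1qb, C1qc and C1ra of the first component, C4b, C3, the alternative pathway factor Cfb, and the anaphylatoxin receptors C3ar1 and C5ar1. The libraries were made from the unmyelinated optic nerve (UON, the rostral segment at the nerve head), the myelinated optic nerve (MON, the first myelinated section behind a discarded transition zone) and whole retina of C57BL/6 mice aged 2 to 4 months, 12 libraries for each of the 3 tissues. The groups of each tissue were naïve mice with both eyes untouched (0 D), mice 3 D and 2 W after unilateral optic nerve crush, and mice 3 D, 2 W and 6 W after unilateral microbead injection into the anterior chamber, a model of ocular hypertension called glaucoma in the labels. Within a group, RNA of 2 female mice made 1 pool and RNA of 2 male mice the other, mixed in equal amounts, so n = 2 pools for every group and the sex of a pool cannot be told apart from the mice in it. The 3 tissues of a group came from the same mice, no animal with a sham operation was analysed here, and the crush was applied to the MON itself.

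Complement is a cascade of proteases and opsonins that tags cells, debris and synapses for removal. In the classical pathway, C1q binds its target, the protease C1r activates C1s, which cleaves C4, and C4 with C2 forms a convertase that cleaves C3, while the alternative pathway amplifies C3 cleavage through factor B and properdin. Cleavage of C3 and C5 releases anaphylatoxins, small peptides that act on myeloid cells through C3aR and C5aR1. In retina and optic nerve, C1q is made chiefly by microglia and macrophages, astrocytes can make C3 and C4, and C1q and C3 take part in removing retinal ganglion cell synapses.

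Total counts ranged from 16158723 to 78054205 per library. The female and male pools of a group correlated at 0.918 to 0.967 (Pearson r over genes, lowest in UON 2 W after crush). Marker genes matched the labelled tissues: the summed level of 8 photoreceptor genes was 55640 to 71842 CPM (counts scaled to library size, with TMM factors over all libraries) in retina and at most 350 CPM in UON and MON, and that of 8 oligodendrocyte genes was 44275 to 165311 CPM in MON, 3215 to 41948 CPM in UON and 76.1 to 139 CPM in retina. Oligodendrocyte genes varied between partner pools within UON. They were lowest in the 2 W crush male pool, with 3215 CPM against 24517 CPM in its female partner. In glaucoma, the female and male pools read 41948 and 18864 CPM at 3 D and 16453.5 and 38221 CPM at 6 W. Because these are bulk samples, fewer cells of a type and less RNA per cell cannot be told apart.

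The C1q genes lie side by side on chromosome 4 of GRCm38, on the minus strand: C1qb at 136880129-136886187, C1qc at 136889804-136893065 and C1qa at 136895917-136898803. C1ra lies at 124512405-124523443 and C3ar1 at 122847138-122856161 on chromosome 6, C5ar1 at 16246743-16259540 on chromosome 7, and C4b at 34728380-34743882, Cfb at 34856374-34862518 and C3 at 57203970-57228136 on chromosome 17. In 8 of the 9 genes a single protein-coding transcript took at least 99.3% of the transcript counts, whereas Cfb-201 took 46.8% and Cfb-202 40.8% of those of Cfb. The RefSeq promoter table (GRCm38.p6) held 6 of the 9 members. Each window begins 250 bases before the RefSeq start and ends before the RefSeq or the GENCODE start of the gene, whichever lies further upstream. The windows of C1qc and C3ar1 therefore stop at the GENCODE start, short of the RefSeq start. Those of C1qb and C1qc are shown because these neighbours passed the test together in MON after crush, with the core of the PU.1 motif (GAGGAA, a factor of the myeloid lineage) in capitals; in C1qc it lies on the opposite strand and reads TTCCTC.
C1qb, chr4:136886201-136886450, minus strand: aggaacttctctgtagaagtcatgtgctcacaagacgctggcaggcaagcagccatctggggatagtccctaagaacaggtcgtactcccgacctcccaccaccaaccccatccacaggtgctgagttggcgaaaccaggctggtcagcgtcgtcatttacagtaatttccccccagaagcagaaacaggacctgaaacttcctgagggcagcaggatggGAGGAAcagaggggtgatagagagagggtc
C1qc, chr4:136893066-136893164, minus strand: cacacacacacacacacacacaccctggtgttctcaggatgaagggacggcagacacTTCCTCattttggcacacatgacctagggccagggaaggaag

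The promoters of C3ar1, which had the largest called change after injury, and of C3, whose levels departed from those of C1q, are shown with an AP-1 match (TGANTCA) and a C/EBP match (TTGCNNAA) in capitals. AP-1 and C/EBP are families of transcription factors that respond to injury and cytokine signals.
C3ar1, chr6:122856162-122856407, minus strand: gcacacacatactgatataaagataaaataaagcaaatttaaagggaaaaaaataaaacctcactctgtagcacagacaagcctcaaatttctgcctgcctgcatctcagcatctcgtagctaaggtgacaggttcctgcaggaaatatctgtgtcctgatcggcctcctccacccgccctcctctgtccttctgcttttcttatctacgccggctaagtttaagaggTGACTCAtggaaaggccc
C3, chr17:57228137-57228386, minus strand: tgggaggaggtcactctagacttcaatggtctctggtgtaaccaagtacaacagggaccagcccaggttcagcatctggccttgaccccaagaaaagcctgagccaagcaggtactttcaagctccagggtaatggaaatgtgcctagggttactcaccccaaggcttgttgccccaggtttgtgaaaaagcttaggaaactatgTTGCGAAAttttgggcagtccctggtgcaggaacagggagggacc

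Both strands were searched for 6 motifs, the others being GAS (TTCNNNGAA), ISRE and NF-kB. Windows of the same length that held the PU.1 core were 23.3% of 32851 promoters at 250 bases and 9.91% at 99 bases. The C/EBP letters occurred in 9.56% of promoters at 250 bases and the AP-1 letters in 6.69% at 246 bases. These matches describe the letters of the windows only, and the short windows of C1ra (34 bases) and C5ar1 (48 bases) held none of the 6 motifs.

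Which members each tissue carried before injury was compared as TPM, the deposited abundance that is corrected for transcript length as well as depth as well as depth. Values for the female pool come first and those for the male pool second throughout. C4b, whose product is cleaved by C1s to start the classical convertase, stood at 614 and 687 TPM in naïve UON and 1077 and 832 TPM in naïve MON, against 1.99 and 2.41 TPM in naïve retina. It was the highest member in both nerve segments, and its nerve and retina values did not come near each other. C1qb, 1 of the 3 chains of the C1q recognition molecule, followed with 488 and 415 TPM in UON and 639 and 825 TPM in MON. In retina C1qb led the order at 22.3 and 22.1 TPM. C1qc and C1qa, the other chains, had means of 273 and 191 TPM in UON, 431 and 334 TPM in MON, and 12.2 and 8.97 TPM in retina, and only in MON did the pools of C1qc and C1qa overlap. C3, the central opsonin, had a mean of 83.2 TPM in UON and 80.8 TPM in MON and 0.364 and 0.785 TPM in the retinal pools.

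**Figure D1:**
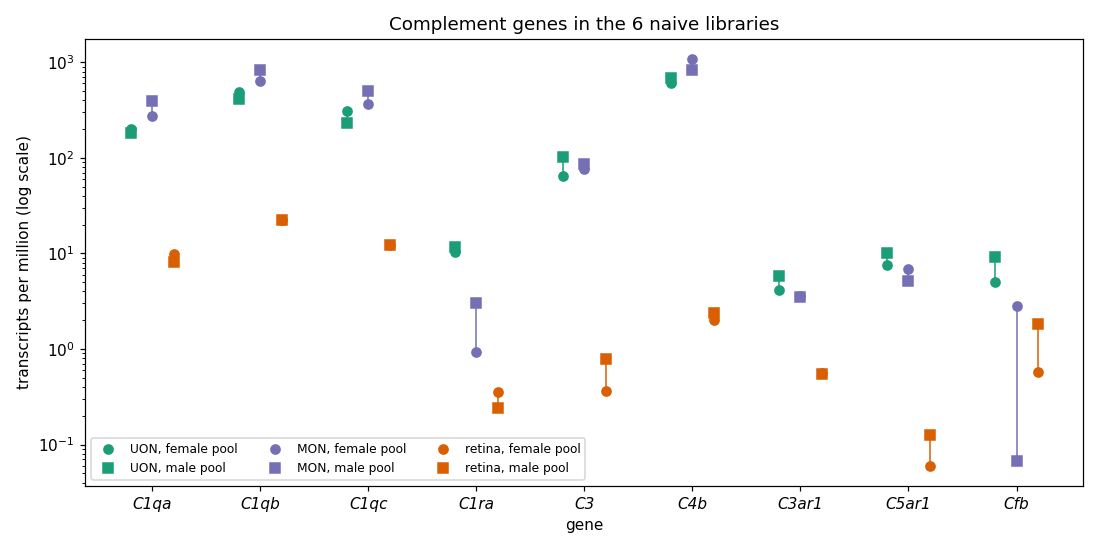
Deposited TPM (log scale) of the 9 members in the 6 naïve libraries, with 1 point for each pool, circles for female and squares for male pools, and a line joining the 2 pools of a tissue. Retina lies below both nerve segments for every member except Cfb, where the male MON pool is the lowest point at 0.0681 TPM.

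The remaining members were low in nerve. C1ra, the protease that activates C1s, stood at 10.3 and 11.6 TPM in UON and 0.938 and 3.06 TPM in MON. C5ar1 and C3ar1, receptors of C5a and C3a, had means of 8.89 and 4.98 TPM in UON and 5.98 and 3.53 TPM in MON. Cfb, the zymogen of the alternative pathway convertase, stood at 5.07 and 9.20 TPM in UON and 2.84 and 0.0681 TPM in MON. In the order of levels, C5ar1, Cfb and C3ar1 overlapped as neighbours in UON, C1ra and Cfb in MON, and Cfb, C3 and C3ar1 in retina.

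Both nerve segments carried far more complement transcript than retina. In naïve UON, 8 of 9 members were higher than in retina (here and below, a gene is called when its edgeR p, adjusted by Benjamini-Hochberg over all genes tested, is under 0.05 and its log2 fold change is over 1 in size), where 31.7% of all genes tested were called in either direction. In naïve MON, 8 of 9 were higher than in retina against 27.6% of genes. C4b had the widest gap, at log2 fold changes of 8.96 (SE 0.39) in UON and 9.65 (SE 0.40) in MON. For C3 the log2 differences were 7.47 and 7.64, for C5ar1 6.77 and 6.41, and for C3ar1 3.43 and 3.13. The C1q chains were closely matched, from 4.64 to 4.77 in UON and from 5.52 to 5.69 in MON. The median over the 9 members was 4.77 in UON and 5.62 in MON, beside -0.17 and 0.00 over all genes. These 16 differences kept their direction in 6 of 6 fits that left out 1 library. A fit without 1 library leaves 1 pool in its group, so only effect sizes are given for such fits. Over the same libraries, 12 microglial genes summed to 794 to 983 CPM in UON, 1177 to 1346 CPM in MON and 47.02 to 54.9 CPM in retina, and 10 astrocyte genes to 23580.2 to 27746, 13370.2 to 19169.7 and 1662 to 1752 CPM, with none of either list at 0, and their part in these differences was not tested.

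Cfb was the member not called against retina, with log2 fold changes of 3.09 (SE 1.57, adjusted p = 0.174) in UON and 1.28 (SE 1.94, adjusted p = 0.682) in MON. Its counts were split with Gm20547, a gene model on the same strand that covers most of Cfb and reaches into C2. The share of the summed counts assigned to Cfb ranged from 0.800% to 100% (median 98.0%) and was under 50% in 5 of 36 libraries, among them the naïve MON male pool, with 1 count on Cfb, and the naïve retina female pool. When the counts of both gene models were summed, a choice made after seeing the data, naïve UON exceeded retina by 2.73 (adjusted p = 0.00278) and naïve MON by 1.81 (adjusted p = 0.017) on the log2 scale. Summed in this way, Cfb was not called in any injury group. C4b held 82.6% to 98.3% of the counts it shared with its near copy C4a, and C1ra 68.2% to 100% of those shared with its near copy C1rb, so that reads between these pairs may have been assigned either way. Without the naïve UON female, MON female, MON male or retina male pool, Cfb was called in UON over retina (adjusted p from 0.00307 to 0.00927). Without the MON female pool, Cfb was lower in MON than in retina (log2 fold change -4.72), and without the MON male pool it was higher (3.49). It was also lower in MON without the retina female pool, so its direction depended on single libraries of both tissues.

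**Figure D2:**
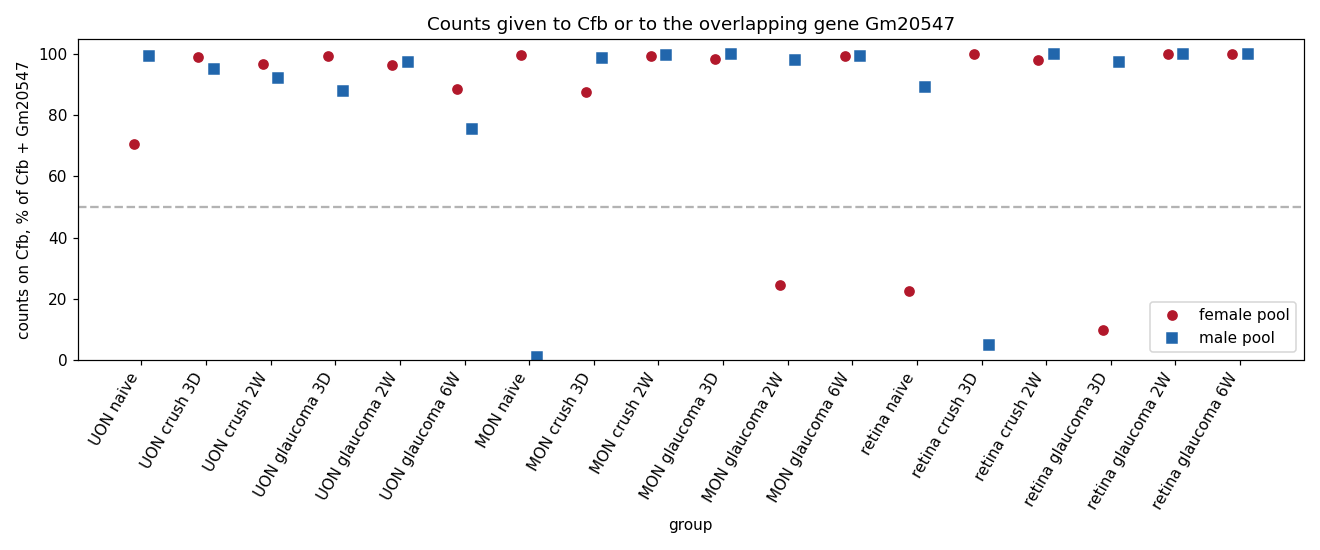
Counts assigned to Cfb as a percentage of the counts of Cfb and Gm20547 together (y axis, linear) in each of the 36 libraries, with circles for female and squares for male pools and a dashed line at 50%. Under the line lie 5 libraries, and the remainder have most of the shared counts on Cfb.

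Between the nerve segments, 0 of 9 members were called by edgeR in naïve UON over MON, where 9.63% of all genes were. At an unadjusted p under 0.05 there were 5 (C1qa, C1qb, C1qc, C1ra and C4b), beside 5831 of all 23685 genes tested. DESeq2 and limma each called 1, C1ra. C1ra read 17.2 and 20.2 CPM in UON and 1.78 and 5.83 CPM in MON, without overlap (log2 fold change 2.39, SE 0.61, adjusted p = 0.0529). C1qa went the other way, with 116 and 110.03 CPM in UON and 181 and 262 CPM in MON (log2 fold change -0.998, SE 0.28, adjusted p = 0.0691). The log2 fold change of C1ra was 2.17 without the UON female pool, 3.47 without the MON male pool and 2.51 without either retinal pool. Without the MON female pool, C1qa, C1qb and C1qc were lower in UON (log2 fold changes of -1.35, -1.13 and -1.18). Cfb was higher (8.31, against 1 count in the remaining MON pool).

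**Figure D3:**
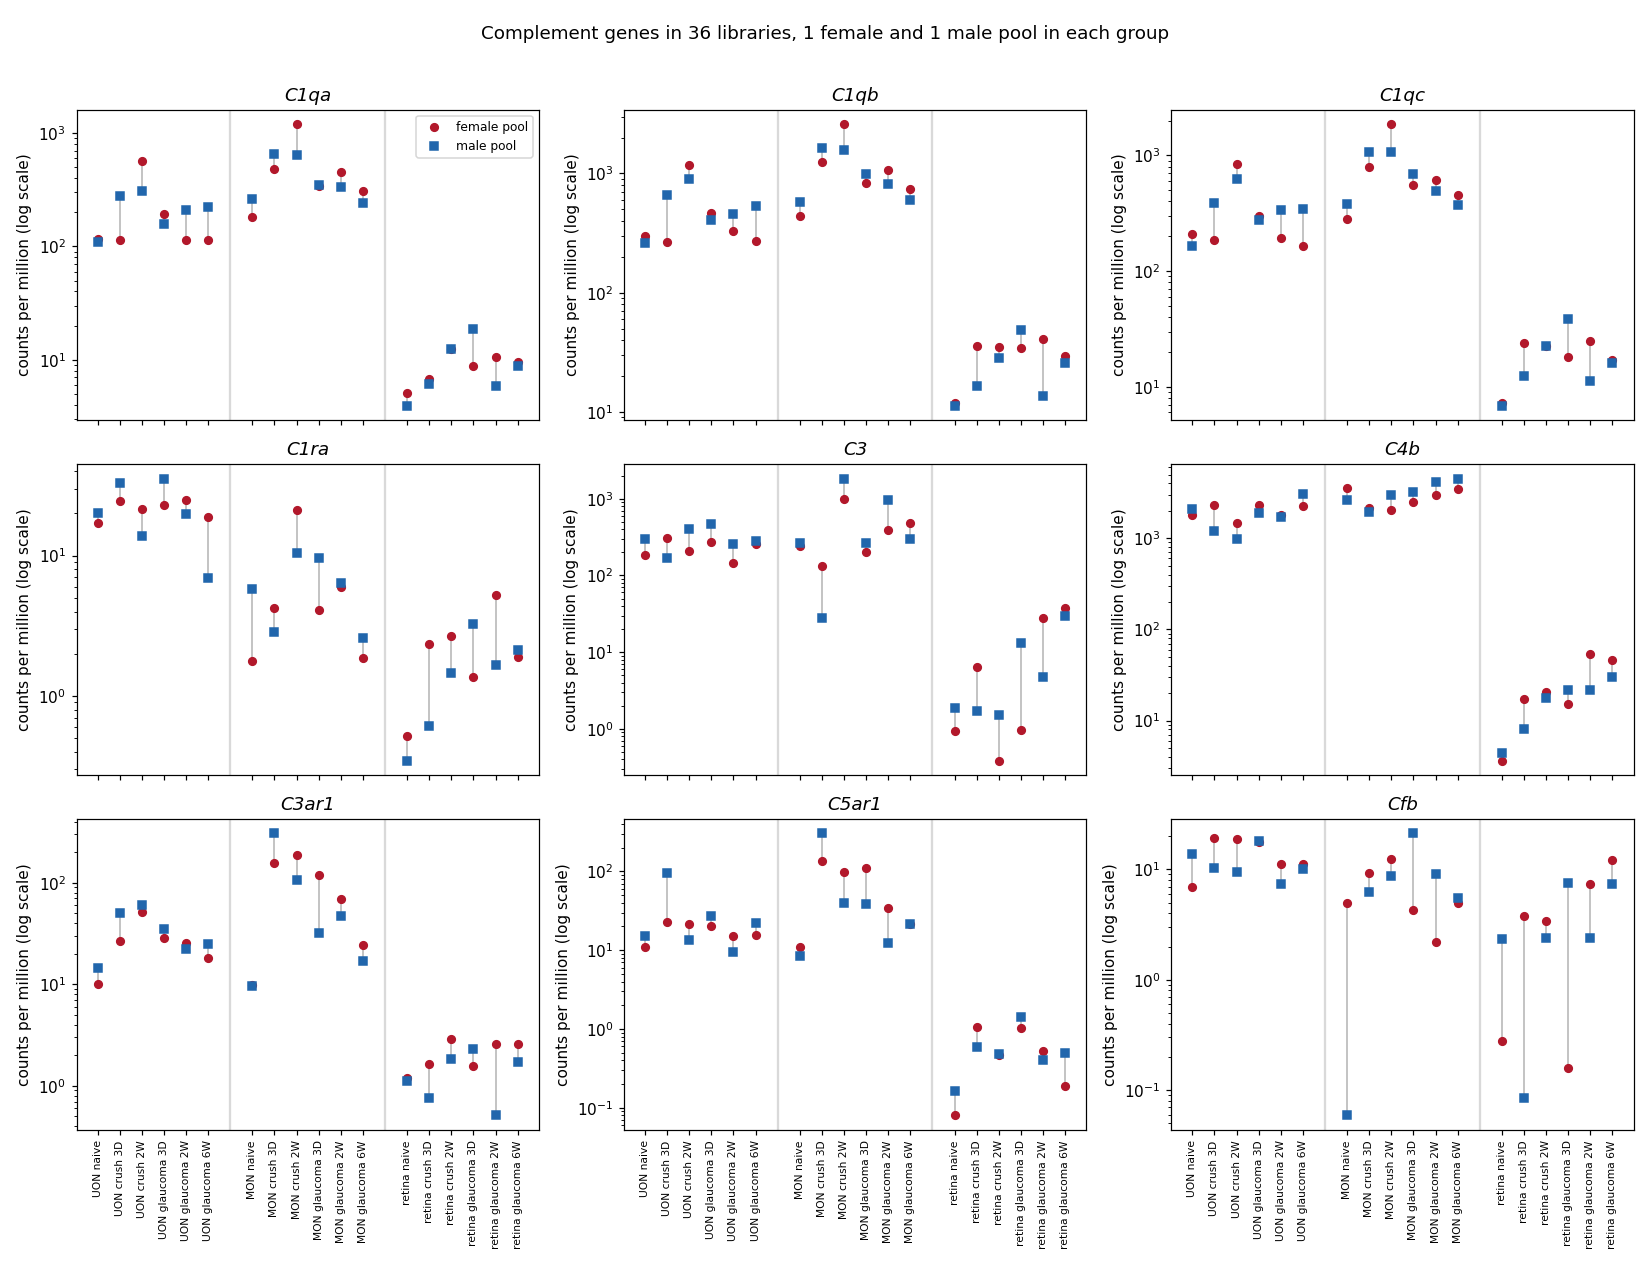
CPM (log scale, TMM over 36 libraries) of the 9 members in every library, 1 panel for each gene, with red circles for female and blue squares for male pools and a grey line joining the pools of a group. In MON, the crush pools of C3ar1, C5ar1 and C1q all lie above the naïve pools, with the 3 D and 2 W pools of C3ar1 and C1q overlapping, and C3 lies below naïve at 3 D and above it at 2 W.

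The largest called changes after crush were those of the receptors in MON. C3ar1 read 9.85 and 9.54 CPM in naïve MON, 158 and 307 CPM at 3 D and 187 and 108 CPM at 2 W. C5ar1 read 11.01 and 8.36 CPM in naïve MON, 136 and 305 CPM at 3 D and 98.2 and 39.6 CPM at 2 W. For both receptors every crush pool lay above both naïve pools. C3ar1 rose at 3 D (log2 fold change 4.66, SE 0.46, adjusted p = 0.00737) and at 2 W (log2 fold change 4.03, SE 0.45, adjusted p = 0.0138). C5ar1 rose at 3 D (log2 fold change 4.63, SE 0.59, adjusted p = 0.0118) and at 2 W (log2 fold change 2.90, SE 0.54, adjusted p = 0.0417). In all, 2 of 9 members were called at 3 D, against 4.26% of all genes, and 4 of 9 at 2 W, against 2.72%. The median log2 fold change of the members was 1.57 at 3 D and 2.24 at 2 W, beside 0.00 and 0.05 over all genes.

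C1q was called in MON only at 2 W, though its change between 3 D and 2 W was not called (log2 difference 0.55, SE 0.41, for C1qb). C1qb read 442 and 573 CPM in naïve MON, 1238 and 1629.6 CPM at 3 D and 2604 and 1582 CPM at 2 W. C1qc read 281 and 380.02, 789 and 1071 and 1873 and 1065 CPM in the same groups. At both times the crush pools of all 3 chains lay above the naïve pools. C1qb (log2 fold change 2.14, SE 0.43, adjusted p = 0.0499) and C1qc (log2 fold change 2.24, SE 0.44, adjusted p = 0.047) rose at 2 W, close to the threshold. C1qa, at 181 and 262 CPM in naïve MON and 1202 and 639 CPM at 2 W, had nearly the same change but was not called (log2 fold change 2.14, SE 0.45, adjusted p = 0.0554). At 3 D the log2 fold changes of the chains were 1.43 to 1.58 with adjusted p of 0.0842 to 0.117. With DESeq2 size factors in edgeR, C1qb and C1qc at 2 W missed the threshold (adjusted p = 0.0533 and 0.051).

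C3 and C4b, the substrates of the cascade, had another order of levels. C3 read 245 and 268 CPM in naïve MON, 135 and 28.2 CPM at 3 D and 997 and 1839.7 CPM at 2 W. Both 3 D pools thus lay below and both 2 W pools above the naïve pools, yet neither difference was called (log2 fold change -1.66, SE 0.73, adjusted p = 0.25 at 3 D, and log2 fold change 2.59, SE 0.72, adjusted p = 0.119 at 2 W). C4b read 3562 and 2634 CPM in naïve MON, 2143 and 1942 CPM at 3 D and 2037 and 2984 CPM at 2 W. Its 3 D pools lay below the naïve pools and its 2 W pools overlapped them, with log2 fold changes of -0.49 and -0.20. C1ra read 1.78 and 5.83 CPM in naïve MON and 21.2 and 10.4 CPM at 2 W (log2 fold change 2.13, SE 0.75, adjusted p = 0.212), and Cfb 4.96 and 0.0589 CPM and 12.4 and 8.81 CPM (log2 fold change 2.90, SE 1.09, adjusted p = 0.245). The pools of 6 members at 3 D and 8 at 2 W lay wholly above the naïve pools, as did 23.6% and 21.8% of all genes. Cfb was among them at both times, with 1 count in the naïve male pool. Summed with Gm20547, its 3 D pools (10.5 and 6.32 CPM) overlapped the naïve pools (4.98 and 7.36 CPM), while its 2 W pools did not.

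**Figure D4:**
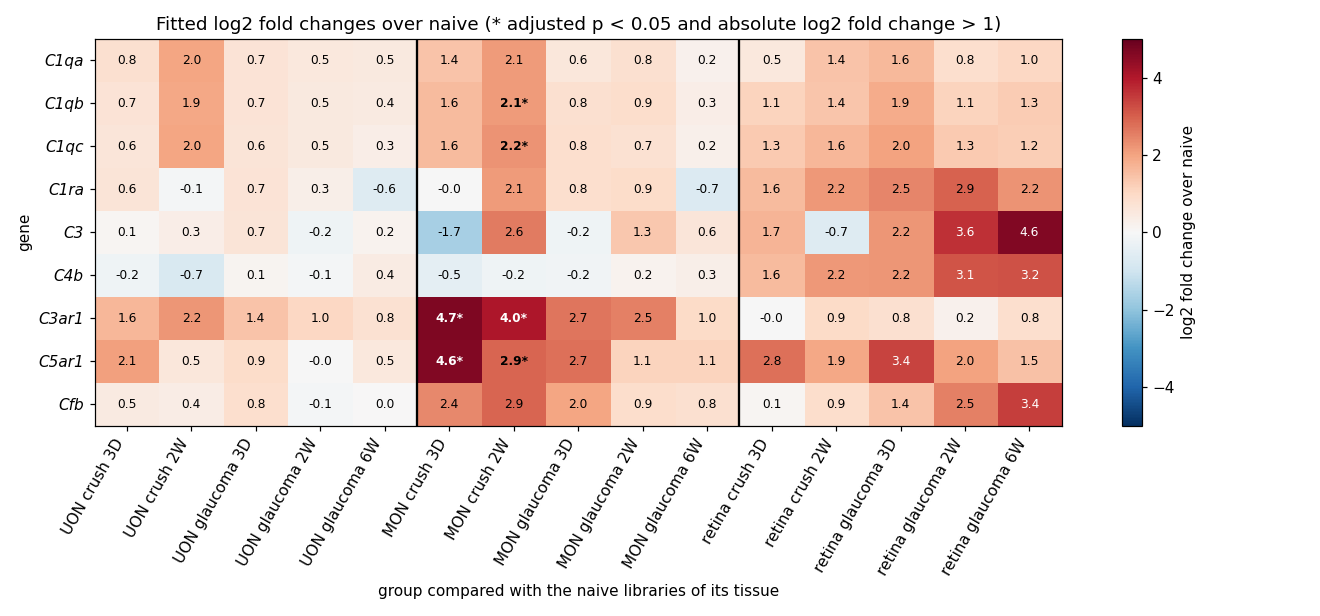
Fitted log2 fold changes over the naïve libraries of the same tissue (colour and printed value) for the 9 members (y axis) in 15 injury groups (x axis), with an asterisk on each call. The 6 calls, all positive, are in MON after crush: C3ar1 and C5ar1 at 3 D and 2 W, and C1qb and C1qc at 2 W.

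Of the 18 member tests in MON after crush, edgeR called 6, DESeq2 11 and limma on log2 TPM 10. An unadjusted edgeR p under 0.05 was reached by 5 members at 3 D and 8 at 2 W, beside 4195 and 3204 of all 19988 genes tested. Calls by edgeR were lost without either naïve pool and gained without a crush pool. Each such fit leaves 1 pool in a group, and the full fit had only 2 residual degrees of freedom. At 3 D the log2 fold change of C3ar1 was 4.66 without the naïve female pool and 4.66 without the naïve male pool. That of C5ar1 was 4.72 and 4.52. Summed markers of myeloid cells lay above naïve at both times, as did C3ar1, C5ar1 and the C1q chains, whereas C3 and C4b lay below naïve at 3 D. In MON the 12 microglial genes summed to 1177 to 1346 CPM in naïve, 2192 to 2386 at 3 D and 3280.1 to 5115 at 2 W. The 7 genes of border macrophages summed to 10.6 to 11.01, 122 to 383 and 35.99 to 117 CPM. The 9 genes of monocytes and neutrophils summed to 2.32 to 5.12, 18.99 to 53.9 and 9.48 to 20.2 CPM, with the neutrophil gene Ly6g at 0 in all 6 libraries, Retnlg at 0 in naïve and Cxcr2 at 0 at 2 W. Oligodendrocyte genes summed to 120854 to 165311, 73236 to 82969 and 44275 to 57562 CPM, and astrocyte genes to 13370.2 to 19169.7, 7684 to 13896 and 15135 to 24680.3 CPM. The 5 red blood cell genes summed to 474 to 593, 729.9 to 1560.3 and 153 to 427 CPM. The part of these markers in the member changes was not tested.

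In UON after crush, C3ar1 lay above naïve at both times and C1q at 2 W, but no call was made. Of 18 member tests edgeR called 0, with 6 at an unadjusted p under 0.05, while DESeq2 called 5 and limma 0. By edgeR, 0% of all genes at 3 D and 0.0281% at 2 W were called. Among all 21368 genes tested, 657 at 3 D and 1980 at 2 W had an unadjusted p under 0.05. C3ar1 read 10.1 and 14.5 CPM in naïve UON, 26.96 and 50.2 CPM at 3 D and 51.04 and 60.3 CPM at 2 W. Its crush pools all lay above the naïve pools (log2 fold change 1.64, SE 0.34, adjusted p = 0.622 at 3 D, and log2 fold change 2.21, SE 0.35, adjusted p = 0.192 at 2 W). C1qb read 297 and 263, 264 and 658 and 1189 and 907 CPM, so that only the 3 D male pool and both 2 W pools exceeded naïve. C1qa, C1qb and C1qc at 2 W had log2 fold changes of 1.96, 1.92 and 1.97 (adjusted p of 0.429 to 0.48), and in a fit of all 36 libraries these 3 were called (adjusted p of 0.0309, 0.0404 and 0.0322). The 12 microglial genes summed to 794 to 983 CPM in naïve UON, 981 to 1047 CPM at 3 D and 1319.99 to 2168 CPM at 2 W, and 5 red blood cell genes to 233 to 548, 599 to 1626 and 3649.7 to 4735 CPM, with none of either list at 0, and their part in the member levels was not tested.

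The male 3 D pool of UON read higher than its female partner for C1q and both receptors. C5ar1 read 10.9 and 14.998 CPM in naïve UON and 22.7 and 94.4 CPM at 3 D, its highest UON value being in that male pool. In the same pair, monocyte and neutrophil genes summed to 6.91 and 58.0 CPM and border macrophage genes to 48.7 and 182 CPM, and their part in the C5ar1 level was not tested. C3 in UON read 184 and 298 CPM in naïve, 311 and 171 CPM at 3 D and 208 and 399 CPM at 2 W, with overlapping groups. C4b read 1798 and 2116, 2338 and 1196 and 1454 and 972 CPM, and both 2 W pools lay below naïve (log2 fold change -0.74, SE 0.39, adjusted p = 0.598). Pools of 3 members at 3 D and 4 at 2 W lay wholly above naïve, beside 16.9% and 19.5% of all genes. The members' median log2 fold change was 0.64 at 3 D and 0.55 at 2 W, against 0.00 and -0.09 over all genes.

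In retina after crush, levels were low throughout and C4b and C1q gave the clearest differences. C4b read 3.62 and 4.43 CPM in naïve retina, 17.2 and 8.16 CPM at 3 D and 20.7 and 17.5 CPM at 2 W, without overlap with naïve. C1qc read 7.31 and 6.80, 23.7 and 12.3 and 22.7 and 22.5 CPM, also without overlap. At 2 W the log2 fold changes were 2.18 (SE 0.35, adjusted p = 0.0883) for C4b and 1.65 (SE 0.28, adjusted p = 0.105) for C1qc. Of 18 member tests edgeR called 0, against 10 at an unadjusted p under 0.05, 7 calls by DESeq2 and 0 by limma. By edgeR, 0.0221% of all genes at 3 D and 0.313% at 2 W were called. Among all 22671 genes tested, 1437 at 3 D and 2037 at 2 W had an unadjusted p under 0.05. C4b at 2 W was called with all 36 libraries in one fit (adjusted p = 0.0406). Without the 3 D female pool, C1qb, C1qc and C4b at 2 W had log2 fold changes of 1.40, 1.63 and 2.21. Without the 3 D male pool these were 1.41, 1.64 and 2.21. Without the naïve male pool C1qb and C4b had 1.70 and 2.67.

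C3ar1 stayed near its naïve level in retina at 3 D after crush. C3ar1 read 1.20 and 1.11 CPM in naïve retina, 1.63 and 0.765 CPM at 3 D and 2.92 and 1.83 CPM at 2 W, so the 3 D pools lay on either side of naïve (log2 fold change -0.03, SE 0.45). C5ar1 rested on few counts, 4 and 7 in naïve retina and 40 and 28 at 3 D. C3 read 0.939 and 1.89, 6.48 and 1.70 and 0.381 and 1.52 CPM, with overlap at both times. The pools of 6 members at 3 D and 8 at 2 W lay wholly above naïve, as did 19.6% and 23.3% of all genes. The 12 microglial genes summed to 47.02 to 54.9 CPM in naïve retina, 62.005 to 77.04 CPM at 3 D and 79.02 to 102 CPM at 2 W, and their part in the C1q levels was not tested.

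After microbead injection, edgeR called no member in any tissue, whereas DESeq2 called 1 in UON, 4 in MON and 7 in retina. The study, which used DESeq2 at the same thresholds, reported changed genes in MON in this model. The missing edgeR calls therefore do not show a lack of response. In MON, edgeR called 0 of 27 member tests, with 11 at an unadjusted p under 0.05, while DESeq2 called 4 and limma 0. By edgeR, 0%, 0% and 0% of all genes were called at 3 D, 2 W and 6 W. Among all 22960 genes tested, 1854, 2017 and 1127 had an unadjusted p under 0.05 at these times. C3ar1 read 118 and 32.3 CPM at 3 D, 68.7 and 46.7 CPM at 2 W and 24.2 and 16.8 CPM at 6 W, above both naïve pools at each time, with log2 fold changes of 2.69, 2.51 and 0.95 (adjusted p of 0.354, 0.293 and 0.849). C5ar1 read 110.4 and 38.9, 34.5 and 12.2 and 21.6 and 21.3 CPM, also above naïve at each time. C3 at 2 W read 398 and 957 CPM (log2 fold change 1.35, SE 0.41, adjusted p = 0.433), and both pools exceeded naïve. The male 3 D pool lay well under its female partner for both receptors. Without the 3 D male pool the log2 fold change of C3ar1 was 3.40 at 3 D and 2.55 at 2 W. Without the 3 D female pool it was 2.55 at 2 W. C1qb read 832 and 994, 1060.04 and 813 and 743 and 604 CPM, all above naïve, with log2 fold changes from 0.33 to 0.88. At 3 D 5 members, at 2 W 7 and at 6 W 5 lay wholly above naïve, beside 18.3%, 18.4% and 20.8% of all genes. Cfb was among those at 6 W, but its counts summed with Gm20547 overlapped (4.98 and 7.36 CPM in naïve, 5.03 and 5.53 CPM at 6 W). Microglial genes summed to 1709.9 to 2376, 2143 to 3255 and 2039 to 2088 CPM at 3 D, 2 W and 6 W, against 1177 to 1346 CPM in naïve MON, and border macrophage genes to 36.9 to 88.1, 23.6 to 272 and 10.996 to 28.1 CPM, and their part in the member levels was not tested.

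In UON with glaucoma, edgeR called 0 of 27 member tests, with 5 at an unadjusted p under 0.05, 1 call by DESeq2 and 0 by limma. The share of all genes called by edgeR was 0% at 3 D, 0% at 2 W and 0% at 6 W. Among all 22438 genes tested, 868, 801 and 451 had an unadjusted p under 0.05 at these times. C3ar1 was the member whose pools exceeded naïve at all 3 times, at 28.6 and 34.8, 25.7 and 22.4 and 18.2 and 24.97 CPM, with log2 fold changes of 1.41, 1.04 and 0.77 and adjusted p of at least 0.87. C3 read 275 and 470.2, 147 and 257 and 254 and 281 CPM and overlapped naïve at every time. C4b read 2289 and 1879, 1810.3 and 1705 and 2241 and 3056 CPM, above naïve in both pools only at 6 W (log2 fold change 0.39, SE 0.27, adjusted p = 1). The number of members lying wholly above naïve was 7 at 3 D, 2 at 2 W and 3 at 6 W, against 16.0%, 15.3% and 17.9% of all genes. Microglial genes summed to 1116 to 1234, 944 to 1113 and 709 to 1449 CPM at these times, against 794 to 983 CPM in naïve UON, so that both 3 D pools lay above naïve, and their part in the C3ar1 and C1q levels was not tested.

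In retina with glaucoma, C4b and C3 had larger fitted log2 fold changes than in either nerve segment at all 3 times, but none was called by edgeR. The retina minus MON difference of C4b was not called by edgeR at any of these times, but by DESeq2 at all 3 (2.35, 2.96 and 2.92, adjusted p = 0.0149, 0.000211 and 0.000445). That of C3 was not called by edgeR, DESeq2 or limma at any of them. Retina against UON was not tested for either gene. C4b read 3.62 and 4.43 CPM in naïve retina, 15.3 and 21.9 CPM at 3 D, 53.8 and 21.8 CPM at 2 W and 45.7 and 29.99 CPM at 6 W. Every glaucoma pool lay above both naïve pools, at log2 fold changes of 2.21, 3.13 and 3.19 (SE 0.42, 0.43 and 0.43). The adjusted p of C4b was 0.458, 0.29 and 0.211 in edgeR, whereas with all 36 libraries in one fit it was 0.00291 at 2 W and 0.00427 at 6 W, both called. C3 read 0.939 and 1.89 CPM in naïve retina and 0.958 and 12.997, 27.8 and 4.76 and 37.2 and 29.96 CPM at 3 D, 2 W and 6 W. Its 3 D female pool was at the naïve level, its 2 W and 6 W pools lay above naïve, and the 6 W difference was 4.62 (SE 1.23, adjusted p = 0.772).

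C1qb in retina read 34.6 and 48.4, 40.9 and 13.6 and 29.4 and 25.9 CPM at 3 D, 2 W and 6 W of glaucoma, all above the naïve 11.9 and 11.2 CPM. Cfb read 0.160 and 7.51, 7.36 and 2.39 and 12.3 and 7.41 CPM, with 4 counts in the 3 D female pool. Of the 27 member tests in retina with glaucoma, edgeR called 0, with 17 at an unadjusted p under 0.05, while DESeq2 called 7 (C1qa, C1qb, C1qc and C4b at 3 D, C1ra and C4b at 2 W, and C4b at 6 W) and limma 0. The share of all genes called by edgeR was 0.00429%, 0% and 0.00858%. Among all 23301 genes tested, 1418, 1465 and 1321 had an unadjusted p under 0.05 at 3 D, 2 W and 6 W. Without the 2 W male pool the log2 fold change of C4b was 3.75 at 2 W and 3.24 at 6 W. Without the 2 W female pool it was 3.24 at 6 W. Pools lying wholly above naïve were found for 7, 8 and 9 members at 3 D, 2 W and 6 W, beside 18.2%, 22.1% and 21.6% of all genes. Cfb was among those at 2 W and 6 W. Summed with Gm20547, it overlapped naïve (1.24 and 2.61 CPM) at 2 W (7.36 and 2.39 CPM) but not at 6 W. The members' median log2 fold change was 2.00, 2.00 and 1.45, beside 0.00, 0.01 and 0.01 over all genes. Microglial genes summed to 84.1 to 123, 58.3 to 83.8 and 72.3 to 73.7 CPM at these times, and their part in the C1q levels was not tested.

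Whether the tissues responded differently was tested as the interaction of tissue and injury. The response of C3ar1 at 3 D after crush was lower in retina than in MON, with a difference of -4.67 on the log2 scale (SE 0.62, edgeR adjusted p = 0.0148). The difference ranged from -5.29 to -3.86 in 12 fits without 1 MON or retina library. With the pool of mice as a replicate block, it had an edgeR adjusted p of 0.0155. It was the 1 call among 90 member tests in 10 such comparisons, with 23 at an unadjusted p under 0.05, 8 calls by DESeq2 and 5 by limma. Over all genes, an unadjusted p under 0.05 was reached by 799 of 25807 to 3757 of 25398 genes in a comparison. For retina minus MON, 0.882% and 0.622% of all genes were called at 3 D and 2 W of crush and 0%, 0% and 0% at the glaucoma times. With the replicate block, which follows from the 3 tissues being taken from the same mice, C3 was called too, in opposite directions, with its retinal response above that of MON at 3 D (3.29, SE 0.46, adjusted p = 0.0222) and below it at 2 W (-3.22, SE 0.47, adjusted p = 0.0318). C4b differed by 2.15 at 3 D and 2.45 at 2 W (adjusted p = 0.068 and 0.0563), and C3ar1 at 2 W by -2.94 (adjusted p = 0.063).

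Over both sets of tissue comparisons, the count of calls depended on single libraries. Such fits leave 1 pool in a group, so their counts are not given. For C3ar1 at 3 D of crush, the MON response minus that of UON was 2.92 without the UON 2 W crush female pool. It was 2.90 without either MON 2 W crush pool. Between MON and UON in the full fit, 0 of 45 member tests were called by edgeR, and the shares of all genes were 0.0120% and 0% at 3 D and 2 W of crush and 0%, 0% and 0% at the glaucoma times. C3ar1 came closest, with a MON response 2.92 above that of UON at 3 D of crush (SE 0.55, adjusted p = 0.25). DESeq2 called this C3ar1 difference (2.85, adjusted p = 0.00177) and limma did not, and neither tool called another member between MON and UON.

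Early and late times of a model were compared within each tissue. Of 54 member tests edgeR called 0, with 11 at an unadjusted p under 0.05, 5 calls by DESeq2 and 1 by limma. Over all genes, an unadjusted p under 0.05 was reached by 1018 of 22438 to 2493 of 19988 genes in a comparison. Of all genes, crush at 2 W over 3 D gave 0.00468%, 0.0750% and 0.0485% in UON, MON and retina, while glaucoma at 6 W over 3 D gave 0%, 0% and 0.0129%. C3 in MON was 4.25 higher on the log2 scale at 2 W than at 3 D of crush (SE 0.81, adjusted p = 0.105). It was called by limma (adjusted p = 0.0374), by DESeq2 (0.00224) and by edgeR with all 36 libraries (0.0478). C5ar1 in MON was lower at 2 W (log2 fold change -1.73, SE 0.54, adjusted p = 0.247), with 98.2 and 39.6 CPM against 136 and 305 CPM. Leaving out the MON 2 W female, 2 W male, 3 D female or 3 D male crush pool gave log2 differences for C3 of 5.29, 3.34, 5.90 and 3.02.

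Crush and glaucoma, which share their naïve libraries, were set against each other directly at 3 D and 2 W. Of 54 member tests edgeR called 0, with 15 at an unadjusted p under 0.05, 6 calls by DESeq2 and 0 by limma. The shares of all genes called by edgeR were 0% and 0.0418% in UON, 0.0162% and 0.0485% in MON, and 0.00810% and 0.113% in retina at 3 D and 2 W. Over all genes, an unadjusted p under 0.05 was reached by 255 of 23927 to 2562 of 24738 genes in a comparison. C3ar1 in MON at 3 D was 1.89 higher after crush (SE 0.52, adjusted p = 0.355), and C1qc in MON at 2 W 1.47 higher (SE 0.34, adjusted p = 0.306). C3 in retina at 2 W went the other way, with 0.381 and 1.52 CPM after crush and 27.8 and 4.76 CPM in glaucoma (log2 fold change -4.21, SE 1.31, adjusted p = 0.458). The MON difference of C3ar1 at 3 D was 2.62 without the crush female pool and 2.87 without the glaucoma female pool.

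Sex was compared over the 6 female and 6 male pools of each tissue. No member was called by edgeR, DESeq2 or limma in 27 tests, and 0 had an unadjusted p under 0.05, while 0.0251%, 0.0404% and 0.0324% of all genes were called in UON, MON and retina. The log2 differences, male over female, ran from -0.28 (Cfb) to 0.42 (C3) in UON, from -0.64 (C5ar1) to 0.29 (C1ra) in MON and from -0.68 (C3ar1) to 0.23 (C5ar1) in retina.

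Across the 36 libraries, with each tissue's mean removed, the members were compared by Pearson r of log2 CPM. The C1q chains tracked each other at 0.95 to 0.98, C1qa tracked C3ar1 at 0.75, and C3ar1 tracked C5ar1 at 0.71. C3 and C4b correlated at 0.56 with each other, while C1qa correlated at 0.15 with C3 and 0.07 with C4b, and C3 at 0.01 with C3ar1. The remaining values did not divide the members cleanly. C5ar1 correlated at 0.54 to 0.60 with the C1q chains. C1ra correlated at 0.51 to 0.56 with those chains and 0.47 with C3, and Cfb at 0.27 to 0.47 with the other members. The points share mice, injury and depth, so these values are descriptive. Among 18515 genes searched, those most like C1qa were Tyrobp (0.93), Trem2 (0.93), Ly86 (0.90), Ctss (0.89) and Cd300c2 (0.88), of which Tyrobp encodes a signalling adaptor of myeloid cells and Trem2 its partner receptor. In MON, Tyrobp read 125 and 207 CPM in naïve and 1264 and 774 CPM at 2 W after crush. Those most like C3 were Chil1 (0.87), Serping1 (0.74), Gbp8 (0.72), Fmod (0.69) and Islr (0.67), and those most like C4b were Noxo1 (0.77), Fam167a (0.73), Tmem63a (0.72), Tnrc6b (0.71) and C4a (0.70). Chil1, a chitinase-like gene, read 17.2 and 19.3 CPM in naïve MON and 7.19 and 3.62 CPM at 3 D after crush, and 14.7 and 17.3 CPM in naïve retina and 195 and 127 CPM at 6 W of glaucoma. In these MON and retina groups C3 likewise lay below and above its naïve pools. Chil1 was picked for its likeness to C3 over these same libraries, so this match follows from the choice.

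The rest of the pathway was represented by 47 other complement genes. Between naïve UON and MON, 36 were tested, 4 were higher in UON and 4 lower, beside 9.63% of all genes called. The higher ones were C1s1 (log2 fold change 3.89), the protease that C1r activates, C2 (3.57), which joins C4 in the convertase, the scavenger receptor Colec12 (3.07), and the inhibitor Serping1 (1.77), which blocks C1r and C1s. Counts of C2 may be split with Gm20547, which held 132 and 4 counts in naïve UON and 1 and 124 in naïve MON. The 2 were not summed. C1s1 read 39.1 and 32.3 CPM in UON and 2.74 and 2.002 CPM in MON, and Serping1 905 and 972 CPM and 296 and 245 CPM, without overlap. The lower ones were the lectin pathway protease Masp1 (-2.81), the membrane cofactor Cd46 (-2.75), and Csmd2 (-2.55) and Csmd3 (-3.64), relatives of a complement inhibitor. Fibroblast genes, 8 in all, summed to 2708 to 2888 CPM in naïve UON and 389.6 to 639.5 CPM in naïve MON, and oligodendrocyte genes to 21672 to 28205 and 120854 to 165311 CPM, with none of either list at 0, and their part was not tested. Against retina, 15 of the 36 were higher and 5 lower in UON, and 16 higher and 2 lower in MON, beside 31.7% and 27.6% of all genes called.

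In MON after crush, 35 of these genes were tested and 5 rose at 3 D, namely Cfp, Itgam, Itgax, Itgb2 and Cd93, while 3 rose at 2 W, namely Colec12, Itgax and Itgb2, beside 4.26% and 2.72% of all genes called. Itgam, Itgax and Itgb2 encode the chains of complement receptors 3 and 4, which bind cleaved C3, and Cfp encodes properdin. Cfp read 5.73 and 5.65 CPM in naïve MON, 45.01 and 189 CPM at 3 D and 12.9 and 5.86 CPM at 2 W (log2 fold change 4.33, SE 0.72, adjusted p = 0.0221 at 3 D). Itgax read 0.859 and 3.003, 12.9 and 31.4 and 79.3 and 43.9 CPM, with log2 fold changes of 3.69 and 5.41. Itgb2 read 48.2 and 32.4, 174 and 289 and 352 and 192 CPM, with log2 fold changes of 2.66 and 2.84. Their crush pools lay above naïve at both times for Itgax and Itgb2, and Cfp lay above naïve in both pools at both times but was called only at 3 D. Serping1 followed C3 in its order of levels, with 296 and 245 CPM in naïve MON, 173 and 53.1 CPM at 3 D and 534 and 914 CPM at 2 W, and was not called (0.27 and 0.221 as adjusted p). Cd55, C1rb and C4a were not called in MON after crush either, with log2 fold changes at 2 W of 0.84, 1.93 and 0.12. The median of the other genes tested was -0.34 at 3 D and 0.34 at 2 W, beside 0.00 and 0.05 over all genes.

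**Figure D5:**
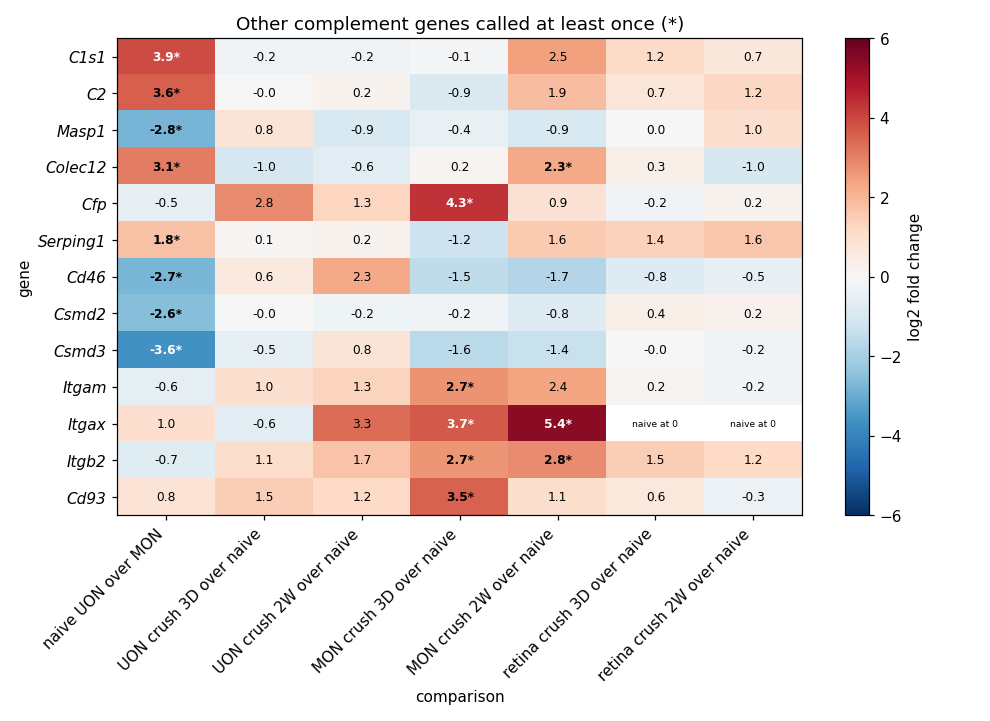
Log2 fold changes (colour and printed value) of the 13 other complement genes (y axis) called at least once in the 7 comparisons on the x axis, with an asterisk on each call. No value is shown for Itgax in retina because both naïve pools had 0 counts, and no call was made in UON or retina after crush.

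In the other injury groups of any tissue, 0 of these genes were called over naïve by edgeR, with 2 to 7 of the 31 to 37 tested in each at an unadjusted p under 0.05. Among all genes tested, those numbered from 451 (UON, 6 W of glaucoma) to 2037 (retina, 2 W after crush). By the rule for named genes, Itgax in UON read 4.47 and 2.402 CPM in naïve and 48.4 and 22.3 CPM at 2 W after crush (log2 fold change 3.34, SE 0.52, adjusted p = 0.191). Itgax in retina had 0 counts in both naïve pools and at most 1.14 CPM after injury. Cfd and Vsig4 in UON, and C4bp and Colec10 in retina, the other genes named by the rule, rested on pools at or near 0. Cfp differed in its response between retina and MON at 3 D after crush (-4.67, SE 0.86, adjusted p = 0.0445), in the same direction as C3ar1, and so did Colec12 at 2 W (-3.11, SE 0.55, adjusted p = 0.0423).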

How the data were processed

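Total RNA of 36 pools was made into libraries with an ultra-low-input kit. Per the methods, the authors aligned reads to GRCm38 with HISAT2 2.2.1, assembled and quantified them with StringTie 1.3.0 on GENCODE M25, and derived the deposited estimated counts of genes and transcripts from coverage with StringTie's prepDE script, so that 1 count stood for about 75.0 bases of coverage. The methods describe longer, paired reads, so counts may exceed the number of reads and fragments behind them. The deposited TPM values came from the same StringTie runs, and the few below 0 were set to 0. No column of per-sample values was left unused (0).

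Counts were tested with edgeR 4.0.16 in R 4.3.3 (quasi-likelihood test, TMM scaling, filterByExpr at 10 counts per library and 15 in total), with group and sex as terms. Naïve tissues, naïve and crush libraries of a tissue, naïve and glaucoma libraries of a tissue, and pairs of tissues were fitted separately, while times of a model were compared within those fits and the models and sexes over the 12 libraries of a tissue. P-values were adjusted by Benjamini-Hochberg over all genes tested. The SE given with an edgeR log2 fold change was its size divided by the square root of the quasi-likelihood F. It was derived from the test and is not a standard error estimated by the fit. Alternatives were DESeq2 1.42.0, limma 3.58.1 on log2(TPM + 1), DESeq2 size factors, no filter, all 36 libraries in one fit, no limit on the fold change, other replicate blocks and each library left out. CPM was scaled by TMM over 36 libraries. Gene positions came from the deposited files, and 141374 of 142699 transcripts were matched to GENCODE M21.

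Named genes were the 9 members, the 3 other complement genes of each tissue called in most comparisons with naïve (ties by fold), C1rb, C4a, Serping1 and Cd55, and the 5 genes most like C1qa, C3 and C4b. Of the other complement genes listed at the start, 1 is not reported here. Genes outside this rule were named as the members of a count. The members and lists were chosen with earlier results of these data known. The 3 tissues of a pool came from the same mice per the methods. Over 30089 genes, deviations of the same pool in a pair of tissues correlated at -0.04 to 0.10, above 0.1 in 0 of 18 pairs. In simulated MON counts, naïve against 3 D of crush (19988 genes), 76 of 100 genes changed by 4 and 41 of 100 changed by 2 on the log2 scale were called, with 15 calls among unchanged genes. For UON, naïve against 2 W of crush (21368 genes), these were 61, 40 and 26. No library duplicated another.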

Additional observations from a re-analysis of the deposited data

Results flagged for a closer look

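Among the 9 members, 1 difference in response between tissues passed the edgeR test of the difference itself without the pool of mice as a block. The response of C3ar1 to crush at 3 D differed between retina and MON by -4.67 on the log2 scale (SE 0.62, edgeR interaction test, adjusted p = 0.0148). In MON the pools read 9.85 and 9.54 CPM in naïve and 158 and 307 CPM at 3 D, and in retina 1.20 and 1.11 CPM and 1.63 and 0.765 CPM. Without 1 MON or retina library the difference ranged from -5.29 to -3.86 over 12 fits, each with 1 pool left in a group. Border macrophage genes, which summed to 10.6 to 11.01 CPM in naïve MON and 122 to 383 CPM at 3 D, stood at 13.4 to 14.9 and 13.4 to 16.4 CPM in retina, and their part in the difference was not tested.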

How the results depend on the processing

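Counts of member calls moved with the method, and the cause was not tested. The shares of all genes called under these alternatives are not given here. The counts therefore do not set the members apart from other genes. DESeq2 gave 5 calls in UON after crush, 1 in UON with glaucoma, 11 in MON after crush, 4 in MON with glaucoma, 7 in retina after crush, 7 in retina with glaucoma, 5 between times, 6 between models and 8 for differences of response. Limma on log2 TPM gave 10 in MON after crush, 1 between times and 5 for differences of response. Without a filter on low counts there were 15 in MON after crush, 3 in MON with glaucoma, 3 in retina after crush, 2 in retina with glaucoma, 3 between times, 4 between models and 11 for differences of response. All 36 libraries in one fit gave 3 in UON after crush, 1 in retina after crush, 2 in retina with glaucoma and 1 between times. For differences of response, the pool of mice as a replicate block gave 3 calls and no replicate block (no sex term) gave 4; elsewhere, omitting the sex block moved no other count by over 1.5 times. Without 1 library, calls ranged from 16 to 22 in naïve tissues, 0 to 0 in UON after crush, 0 to 0 in UON with glaucoma, 0 to 14 in MON after crush, 0 to 2 in MON with glaucoma, 0 to 3 in retina after crush, 0 to 2 in retina with glaucoma, 0 to 3 between times, 0 to 3 between models, 1 to 5 for differences of response and 0 to 0 between sexes. The difference of Cfb between naïve MON and retina reversed with limma (-0.0571), without the MON female pool (-4.72) and without the retina female pool (-1.26), and reached 3.49 without the MON male pool. DESeq2 size factors moved the median of all genes by at most 0.104 on the log2 scale, and ended 2 calls, C1qb and C1qc in MON at 2 W. The fit of all 36 libraries and the fit without sex were not run for the sexes. With 2 pools a group, a missing call does not show equal levels, and retinal C5ar1 and split Cfb counts were too few for a firm value.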
